A study of Mus musculus with 23 samples.

Results

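The 40 collagen genes measured in the livers of mice that had inhaled particles are described here. They are the genes whose listed symbol is Col, a number, the letter a and a number, such as Col1a1, and they were found on 41 of the 18688 array features that have a listed gene. Col14a1 had 2 features and every other collagen gene had 1, so the brighter feature of Col14a1 was used. Col6a3, Col6a5, Col21a1, Col27a1 and Col28a1 were not analysed here. RNA came from the whole liver of 23 female C57BL/6 mice, 12 to 13 weeks old by the labels, with 1 array per mouse. The carbon black group (CB, 8 mice) inhaled carbon black of the brand Printex, the diesel group (DEP, 7 mice) inhaled diesel exhaust particles sold by NIST as a reference material, and the air group (8 mice) inhaled filtered air. Both particles were given at 20 mg/m3 in 4 consecutive exposures of 90 min, and the labels give 90 minutes from exposure to collection. The study's methods give a younger age and a shorter time. The groups were also spread unevenly over 3 exposure rounds and 5 array sets. The last round held 1 CB, 4 DEP and 2 air mice, the second array set no DEP mouse and the fifth no air mouse.

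Liver RNA of 1 mouse, in Cy5, was hybridized on each array together with a universal mouse reference RNA in Cy3, and no array had the dyes exchanged. A value below is the log2 ratio of liver to reference after loess normalization within the array, unless a signal is named. A log2 ratio of −1 therefore means that the signal of the liver was lower than that of the reference by 1 unit on the log2 scale. The reference is a pool of RNA from other sources, so the ratio does not say how much mRNA of a gene the liver held, and ratios of different genes are not levels. A spot is called absent where the deposited flag put its Cy5 signal within the range of the negative control spots, and a gene is called detected where its spot was present on at least 12 of the 23 arrays. In whole liver, a smaller number of cells of a type and less RNA per cell cannot be told apart.

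Collagens are secreted proteins whose chains wind around each other in threes, and they form the scaffold of the extracellular matrix. The fibrillar collagens of types I, III and V pack into the banded fibres of connective tissue. In the liver these fibres lie around portal tracts and in the capsule, and stellate cells and portal fibroblasts make more of them when the organ scars. The collagens of type IV build the flat sheets under epithelia and endothelia. The sinusoids of a healthy liver have little of such a sheet. The multiplexins, types XV and XVIII, stand at the border of the basement membrane, and hepatocytes are known to make type XVIII, from which the fragment endostatin is cut.

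Of the 40 collagen genes, 30 were detected (75%), against 13669 of all 18688 features (73.1%). Spots of 14 collagens were present on all 23 arrays, and Col9a1 was the only one absent on all of them. Among the detected collagens 19 were lower in liver than in the reference and 11 were higher, and their median log2 ratio was −0.82. Over all detected features the median was 0.11 and 43.8% were lower in liver. The collagens thus leaned towards the reference, which differed by class as described next.

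The fibrillar class had 10 measured genes, of which 9 were detected and 8 of these were lower in liver than in the reference. Their median log2 ratio was −2.08, with a range from −3.86 for Col1a2 to 0.01 for Col11a1. Col1a1 and Col1a2 encode the chains of type I, the main protein of fibres, and Col3a1 the chain of type III. Their mean log2 ratios were −2.08 ± 0.25, −3.86 ± 0.32 and −2.91 ± 0.24 in that order (SD, n = 23 mice), so the reference signal was 4.24-fold, 14.5-fold and 7.51-fold higher. The Cy3 signal of Col1a2 was saturated on 3 arrays (2 CB, 1 DEP and 0 air), where the measured ratio is higher than the true one. Col5a1 and Col5a2 encode chains of type V, which sits inside fibres of type I and sets their width, and lay at −3.08 ± 0.21 and −2.80 ± 0.29. The Cy5 spot of Col5a2 was dim, with a median signal of 252, and was absent on 8 arrays. Col5a3 lay at −1.03 ± 0.19. Col2a1 and the type XI chains Col11a1 and Col11a2, known from cartilage, lay at −1.79 ± 0.88, 0.01 ± 0.20 and −0.04 ± 0.22. Their median Cy5 signals were 299.5, 303 and 462 in that order. The Cy3 signal of Col2a1, from the same reference RNA, ran from 124.5 to 4234.5 between arrays. Col24a1 was absent on 20 of 23 arrays.

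The type IV class had 6 measured genes. Col4a1 and Col4a2, whose chains form the network found in nearly every basement membrane, were present on all arrays at −1.19 ± 0.19 and −0.84 ± 0.18 (SD, n = 23). Col4a5, a chain of specialised membranes, was also present on all arrays at −0.81 ± 0.18. Col4a4 lay at −0.48 ± 0.52 with 1 absent spot. All 4 were lower in liver than in the reference, with a median of −0.82. Col4a3 was absent on 15 arrays and Col4a6 on 20, and a ratio near 0 of such a spot compares dim signals of both channels.

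Taken mouse by mouse, the median log2 ratio of the 9 detected fibrillar genes was −2.46 ± 0.23 in CB mice (n = 8), −2.16 ± 0.25 in DEP mice (n = 7) and −2.24 ± 0.31 in air mice (SD, n = 8). A median of 9 genes is the value of 1 gene, and which gene this was differed between mice. The lowest medians in CB mice (−2.71, mouse 445) and in air mice (−2.67, mouse 442) were values of Col2a1, whose Cy3 signal varied widely between arrays. The median of the 4 detected type IV genes was −0.84 ± 0.10 in CB mice, −0.82 ± 0.17 in DEP mice and −0.88 ± 0.11 in air mice. The fibrillar median was below the type IV median in 23 of 23 mice. The difference, fibrillar minus type IV, was −1.63 ± 0.24 in CB mice, −1.34 ± 0.28 in DEP mice and −1.36 ± 0.34 in air mice. Its range was −1.92 to −1.26 in CB mice, −1.70 to −0.88 in DEP mice and −1.78 to −0.76 in air mice, so the groups overlapped. It is a description of both RNA pools, liver and reference, and no test was made of it. No background was subtracted from these signals, which draws the ratio of a dim spot towards 0. The median Cy3 signal of the detected type IV genes ran from 525 (Col4a5) to 1517 (Col4a4). Among the detected fibrillar genes it ran from 244 (Col11a1) to 44666 (Col1a2). The part of spot brightness in the difference was not tested. Of the fibrillar genes, Col11a1, Col11a2 and Col24a1 had ratios near 0, above the means of the 4 detected type IV genes.

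**Figure D1:**
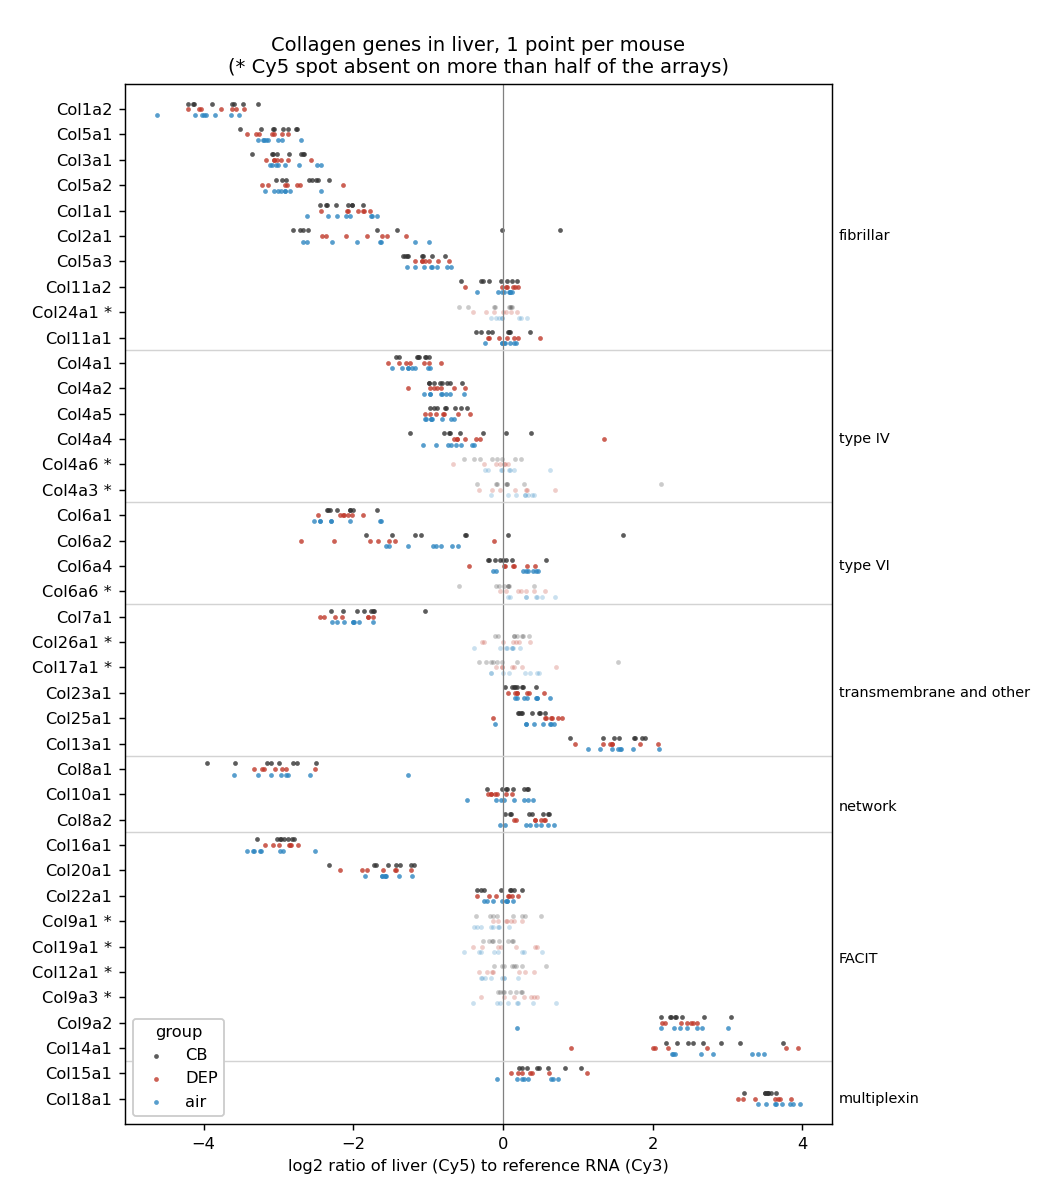
Log2 ratio of liver to reference (x axis) for each of the 40 collagen genes (rows, grouped by class), with 1 point per mouse in CB (black), DEP (red) and air (blue). Pale points and a star mark genes absent on most arrays, which lie near 0. Most fibrillar genes lie left of the type IV genes, Col18a1 lies far right, and the colours mix in every row.

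The remaining classes held both directions. Of type VI, whose chains make beaded filaments around cells, Col6a1 lay at −2.14 ± 0.26 and Col6a2 at −1.07 ± 0.88, while Col6a4 lay at 0.12 ± 0.26 (SD, n = 23). Among the network collagens Col8a1, a chain of vessel walls, lay at −2.98 ± 0.51. Col7a1, the anchoring fibril of skin, lay at −1.97 ± 0.30, and Col16a1, a collagen that associates with fibres, at −3.01 ± 0.23. Their median Cy5 and Cy3 signals were 295 and 993 for Col7a1, 835 and 7196 for Col8a1 and 743.5 and 5692 for Col16a1.

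A smaller number of collagens had a higher signal in liver than in the reference. Col18a1, the gene of type XVIII, lay at 3.58 ± 0.21, or 11.9-fold as measured. Its Cy5 signal was saturated on 11 of 23 arrays (4 CB, 3 DEP and 4 air), so this ratio is a lower limit on those arrays. Col14a1, a fibre-associated collagen, lay at 2.70 ± 0.71, but its Cy3 spot was absent on 16 of 23 arrays, so no fold over the reference is given. The other Col14a1 feature was absent in Cy5 on 21 arrays and lay at 0.11, so the 2 features of this gene disagreed. Col9a2, known from cartilage, lay at 2.34 ± 0.53 or 5.05-fold, whereas Col9a1 and Col9a3, whose products join it in type IX, were absent on 23 and 17 arrays. Col13a1, a transmembrane collagen, lay at 1.54 ± 0.31, but its Cy3 spot was dim, with a median signal of 180, and was absent on 7 arrays. Col15a1, the other multiplexin, lay at 0.45 ± 0.30, with a median Cy5 signal of 220 and absent spots on 10 arrays, and its Cy3 spot was absent on 22. The other detected genes were Col20a1 at −1.59, Col22a1 at −0.03, Col10a1 at 0.04, Col23a1 at 0.28, Col8a2 at 0.37 and Col25a1 at 0.44. The Cy3 spot of Col8a2 was absent on 12 arrays. Col6a6, Col12a1, Col17a1, Col19a1 and Col26a1 were absent on 14, 22, 19, 21 and 21 arrays in that order.

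Promoter sequence is shown for 4 genes that the results turn on: Col1a2 and Col3a1, fibrillar genes of types I and III whose signal was far below the reference, and Col4a1 and Col4a2, which share a promoter region and whose values are compared below. Each window runs 5′ to 3′ along the gene's own strand from 250 bases before the annotated start to 50 bases after it (RefSeq, build GRCm38.p6). The 31 of 40 collagen genes that matched by symbol have 34 such windows. Capitals mark 3 motifs, searched on both strands, so that the reverse complement of each is in capitals too. The TATA box was searched as the letters TATAAA. For the CCAAT box the letters of its name were used. The GC box was searched as GGGCGG.
Col1a2 (chr6:4505368-4505667, plus strand): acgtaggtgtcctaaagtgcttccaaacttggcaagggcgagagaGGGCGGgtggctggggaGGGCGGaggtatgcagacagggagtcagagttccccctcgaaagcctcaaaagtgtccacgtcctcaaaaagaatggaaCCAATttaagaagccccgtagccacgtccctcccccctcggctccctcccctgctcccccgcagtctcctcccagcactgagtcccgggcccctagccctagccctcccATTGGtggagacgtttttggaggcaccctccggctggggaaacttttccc
Col3a1 (chr1:45311288-45311587, plus strand): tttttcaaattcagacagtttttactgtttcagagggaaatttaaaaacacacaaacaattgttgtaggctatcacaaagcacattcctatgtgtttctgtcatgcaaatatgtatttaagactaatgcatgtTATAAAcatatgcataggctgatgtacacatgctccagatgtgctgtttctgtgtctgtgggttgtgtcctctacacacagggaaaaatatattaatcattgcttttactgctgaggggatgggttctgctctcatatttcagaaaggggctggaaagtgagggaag
Col4a1 (chr8:11312777-11313076, minus strand): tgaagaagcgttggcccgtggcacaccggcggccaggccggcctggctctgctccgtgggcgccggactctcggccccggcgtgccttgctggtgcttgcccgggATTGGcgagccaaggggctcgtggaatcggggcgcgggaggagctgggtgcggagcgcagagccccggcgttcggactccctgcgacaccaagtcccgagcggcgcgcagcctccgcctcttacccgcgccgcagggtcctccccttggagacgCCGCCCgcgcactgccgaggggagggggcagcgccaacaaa
Col4a2 (chr8:11312555-11312854, plus strand): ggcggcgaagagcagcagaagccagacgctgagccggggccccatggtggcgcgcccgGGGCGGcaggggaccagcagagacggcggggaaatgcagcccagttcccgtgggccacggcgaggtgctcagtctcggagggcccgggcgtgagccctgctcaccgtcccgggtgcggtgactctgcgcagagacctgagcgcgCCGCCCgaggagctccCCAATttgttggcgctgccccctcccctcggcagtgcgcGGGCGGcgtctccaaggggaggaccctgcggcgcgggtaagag

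The Col1a2 window held 2 CCAAT and 2 GGGCGG matches, the Col3a1 window 1 TATAAA match, the Col4a1 window 1 CCAAT and 1 GGGCGG match, and the Col4a2 window 1 CCAAT and 3 GGGCGG matches. The share of G and C was 61% in Col1a2 and 37.7% in Col3a1, against 74% in Col4a1 and 73.7% in Col4a2. Over the 34 collagen windows, TATAAA was in 5, CCAAT in 13 and GGGCGG in 21. Over all 32851 promoter windows of this length, 13.6% held TATAAA, 37.4% CCAAT and 35.7% GGGCGG. These are matches of letters only. Col4a1 (chr8:11198423-11312889) and Col4a2 (chr8:11312805-11449287) lie head to head on opposite strands, so that their windows share 78 bases.

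The central comparison of the design is each particle group with air. limma called 0 of the 40 collagen genes after CB and 0 after DEP at an adjusted p of 0.05, where it called 0% of all 18688 features in either comparison. It also called 0 collagens in CB over DEP (0% of all features) and 0 in the pooled particle mice over air (0% of all features). Among the collagens the smallest adjusted p was 0.689 for CB over air, 0.997 for DEP over air, 1.00 for CB over DEP and 0.807 for the particle groups pooled. An Fs test written here after the study's methods, not with the study's own software, called 0 collagen genes in each comparison as well. Its share over all features is not given here. The study itself reported a small number of changed genes after each particle, and no collagen gene is named among them.

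At an unadjusted p under 0.05 there were 3 of 40 collagen genes after CB, where the background was 5.94% of all features. DEP over air had 1 (background 4.82%), CB over DEP had 2 (background 3.44%), and the pooled particle mice had 3 (background 6.04%). The limma shares of the collagens are near this background. The Fs test gave 4, 0, 2 and 3 collagen genes in the same order. Its share over all features is not given here, so the Fs counts are not set against a background. After CB 21 collagens had a positive and 19 a negative log2 fold change, with a median of 0.01, and after DEP 20 and 20, with a median of 0.00. Of all features, 9378 were positive and 9310 negative after CB, and 9348 and 9340 after DEP. No collagen gene had values that separated CB mice or DEP mice fully from air mice, as 0.0589% of all features did after CB and 0.0107% after DEP.

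By class, the median log2 fold change of the 9 detected fibrillar genes was −0.07 after CB and 0.01 after DEP. For the 4 detected type IV genes it was 0.10 after CB and 0.06 after DEP. The mice had been exposed in 3 rounds, of which the second held 6 CB, 2 DEP and 4 air mice and the last 1 CB, 4 DEP and 2 air mice, and the first too few for a value of its own. Second-round mice had a fibrillar median of 0.04 for CB and 0.15 for DEP, and last-round mice one of −0.11 and −0.05. Their type IV medians were 0.10 for CB and −0.01 for DEP in the second round, and 0.08 and 0.09 in the last. With the round as a block the fibrillar medians were −0.08 and 0.03 and the type IV medians 0.07 and 0.08. With median centring of each array, which moved the median of all features to −0.11 after CB and −0.04 after DEP, the fibrillar medians were −0.23 and −0.05.

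**Figure D2:**
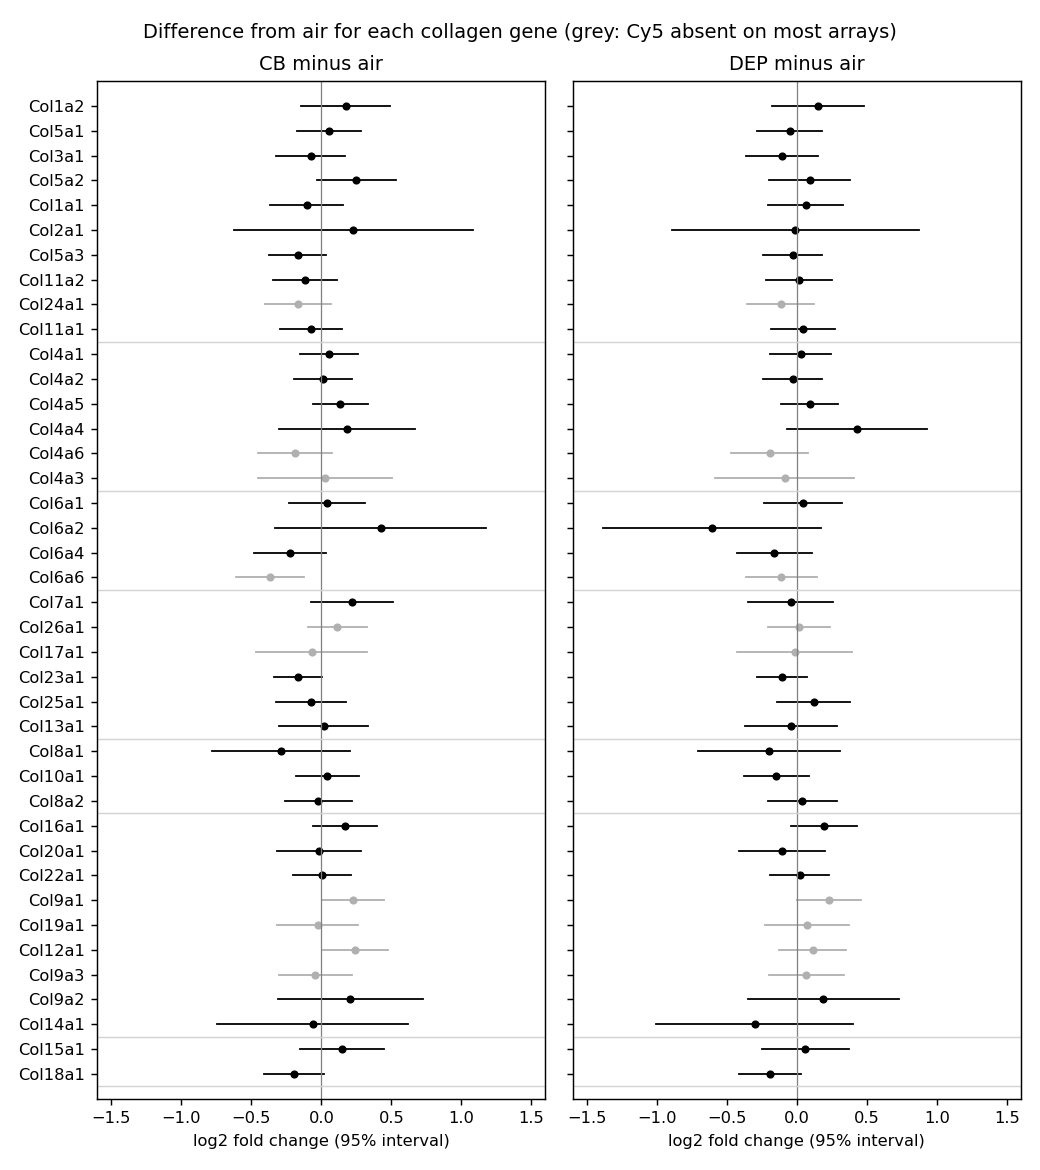
Log2 fold change (points) with its 95% interval from limma (lines) for each of the 40 collagen genes, CB minus air on the left and DEP minus air on the right. Grey marks genes absent on most arrays. Both panels scatter around 0, and every interval that excludes 0 belongs to a grey gene.

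Col1a1 (NM_007742) had log2 ratios of −2.44, −2.15 and −1.87 in CB mice (lowest, median and highest), −2.43, −1.93 and −1.78 in DEP mice and −2.62, −2.07 and −1.69 in air mice. The range of the air mice held that of both particle groups. Col1a1 in CB mice differed from air by a log2 fold change of −0.10 (SE 0.13, 95% interval −0.36 to 0.16, limma adjusted p = 0.933), and in DEP mice by 0.06 (SE 0.13, −0.21 to 0.33, adjusted p = 0.997). For Col1a1, CB and DEP mice of the second round gave 0.04 and 0.19, and those of the last round −0.25 and 0.14. Against the shift of −0.11 over all features, median centring gave −0.44 after CB (adjusted p = 0.0651 from limma) and −0.07 after DEP.

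Col1a2 (NM_007743), the other chain of type I, had −4.21, −3.76 and −3.27 in CB mice, −4.21, −3.77 and −3.45 in DEP mice and −4.62, −3.98 and −3.53 in air mice. The lowest value was that of air mouse 50, and the groups overlapped over most of their range. Col1a2 in CB mice differed from air by a log2 fold change of 0.17 (SE 0.16, 95% interval −0.15 to 0.49, limma adjusted p = 0.914), and in DEP mice by 0.15 (SE 0.16, −0.18 to 0.48, adjusted p = 0.997). For Col1a2, CB and DEP mice of the second round gave 0.39 and 0.41, and those of the last round −0.14 and 0.08. Since saturated Cy3 spots of Col1a2 occurred in particle mice only, its means were also taken without those 3 arrays, a choice made after the values were seen. They were then −3.91 ± 0.31 in CB mice (SD, n = 6), −3.86 ± 0.29 in DEP mice (n = 6) and −3.97 ± 0.33 in air mice (n = 8), so the differences from air were 0.06 and 0.11, with no test. The changes of both type I chains stayed within the spread between mice.

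Col3a1 (NM_009930) had −3.36, −2.93 and −2.65 in CB mice, −3.17, −3.02 and −2.56 in DEP mice and −3.11, −2.96 and −2.43 in air mice. The medians lay close together and the ranges overlapped. Col3a1 in CB mice differed from air by a log2 fold change of −0.08 (SE 0.12, 95% interval −0.33 to 0.17, limma adjusted p = 0.955), and in DEP mice by −0.11 (SE 0.13, −0.37 to 0.15, adjusted p = 0.997). For Col3a1, CB and DEP mice of the second round gave −0.03 and −0.13, and those of the last round 0.17 and 0.07. Cy5 signals without the reference put Col3a1 at 0.33 in CB and 0.30 in DEP.

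Col5a2 (NM_007737) had −3.04, −2.57 and −2.32 in CB mice, −3.22, −2.89 and −2.13 in DEP mice and −3.18, −2.94 and −2.43 in air mice. The CB median was the highest, and air mouse 443 stood above the other air mice. Its spot was absent on 4 CB, 2 DEP and 2 air arrays. Col5a2 in CB mice differed from air by a log2 fold change of 0.25 (SE 0.14, 95% interval −0.03 to 0.53, limma adjusted p = 0.873), and in DEP mice by 0.09 (SE 0.14, −0.20 to 0.38, adjusted p = 0.997). For Col5a2, CB and DEP mice of the second round gave 0.42 and 0.15, and those of the last round 0.12 and 0.17. Cy5 signals without the reference put Col5a2 at −0.02 in CB and −0.06 in DEP. The other type V chain, Col5a1, had a log2 fold change of 0.06 after CB and −0.05 after DEP.

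Of the basement membrane pair, Col4a1 (NM_009931) had −1.43, −1.13 and −0.99 in CB mice, −1.54, −1.25 and −0.82 in DEP mice and −1.49, −1.24 and −0.98 in air mice. DEP mice held both the lowest and the highest value. Col4a1 in CB mice differed from air by a log2 fold change of 0.06 (SE 0.10, 95% interval −0.15 to 0.27, limma adjusted p = 0.959), and in DEP mice by 0.03 (SE 0.11, −0.19 to 0.24, adjusted p = 0.997). For Col4a1, CB and DEP mice of the second round gave −0.01 and −0.04, and those of the last round 0.18 and 0.12. The 95% intervals of Col4a1 correspond to 0.899-fold to 1.20-fold after CB and 0.876-fold to 1.18-fold after DEP, among the narrowest of the named collagens.

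Col4a2 (NM_009932) had −0.99, −0.83 and −0.55 in CB mice, −1.27, −0.88 and −0.50 in DEP mice and −1.05, −0.82 and −0.52 in air mice. As for Col4a1, DEP mouse 835434 was the lowest and DEP mouse 51 the highest of all mice. Col4a2 in CB mice differed from air by a log2 fold change of 0.01 (SE 0.10, 95% interval −0.19 to 0.22, limma adjusted p = 0.993), and in DEP mice by −0.03 (SE 0.10, −0.24 to 0.18, adjusted p = 0.997). For Col4a2, CB and DEP mice of the second round gave 0.06 and −0.04, and those of the last round −0.01 and 0.06.

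Col6a1 (NM_009933) had −2.35, −2.13 and −1.68 in CB mice, −2.47, −2.12 and −1.87 in DEP mice and −2.52, −2.29 and −1.63 in air mice. Both ends of the range belonged to air mice. Col6a1 in CB mice differed from air by a log2 fold change of 0.04 (SE 0.13, 95% interval −0.23 to 0.31, limma adjusted p = 0.978), and in DEP mice by 0.04 (SE 0.14, −0.24 to 0.32, adjusted p = 0.997). For Col6a1, CB and DEP mice of the second round gave 0.05 and 0.01, and those of the last round 0.17 and 0.29.

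The multiplexins were the only class whose detected genes all lay above the reference, but the class has only 2 genes. For Col15a1 the Cy3 spot was absent on 22 of 23 arrays, so its ratio compares dim signals. Col15a1 (NM_009928) had 0.21, 0.47 and 1.04 in CB mice, 0.10, 0.36 and 1.12 in DEP mice and −0.08, 0.30 and 0.74 in air mice. Its spot was absent on 4 CB, 4 DEP and 2 air arrays. Col15a1 in CB mice differed from air by a log2 fold change of 0.15 (SE 0.15, 95% interval −0.15 to 0.45, limma adjusted p = 0.918), and in DEP mice by 0.06 (SE 0.15, −0.25 to 0.37, adjusted p = 0.997). For Col15a1, CB and DEP mice of the second round gave 0.27 and 0.15, and those of the last round 0.10 and 0.03. The ranges of the 3 groups overlapped.

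Col18a1 (NM_009929) had 3.22, 3.53 and 3.64 in CB mice, 3.14, 3.63 and 3.85 in DEP mice and 3.40, 3.69 and 3.97 in air mice. The median of the air mice stood above the highest CB mouse, and the ranges overlapped below it. limma gave a log2 fold change over air of −0.19 for CB (SE 0.10, adjusted p = 0.873), −0.19 for DEP (SE 0.11, adjusted p = 0.997) and −0.19 for the pooled particle mice (SE 0.09, adjusted p = 0.821). Within the second round these were −0.18, −0.03 and −0.10, and in mice of the last round −0.36, −0.47 and −0.41. With the Cy5 signal alone they were 0.04, −0.04 and 0.00, and with median centring −0.46, −0.32 and −0.39, with limma adjusted p of 0.0841, 0.904 and 0.173. Since 11 Cy5 spots were saturated, a difference in liver RNA could not be measured in full for this gene.

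**Figure D3:**
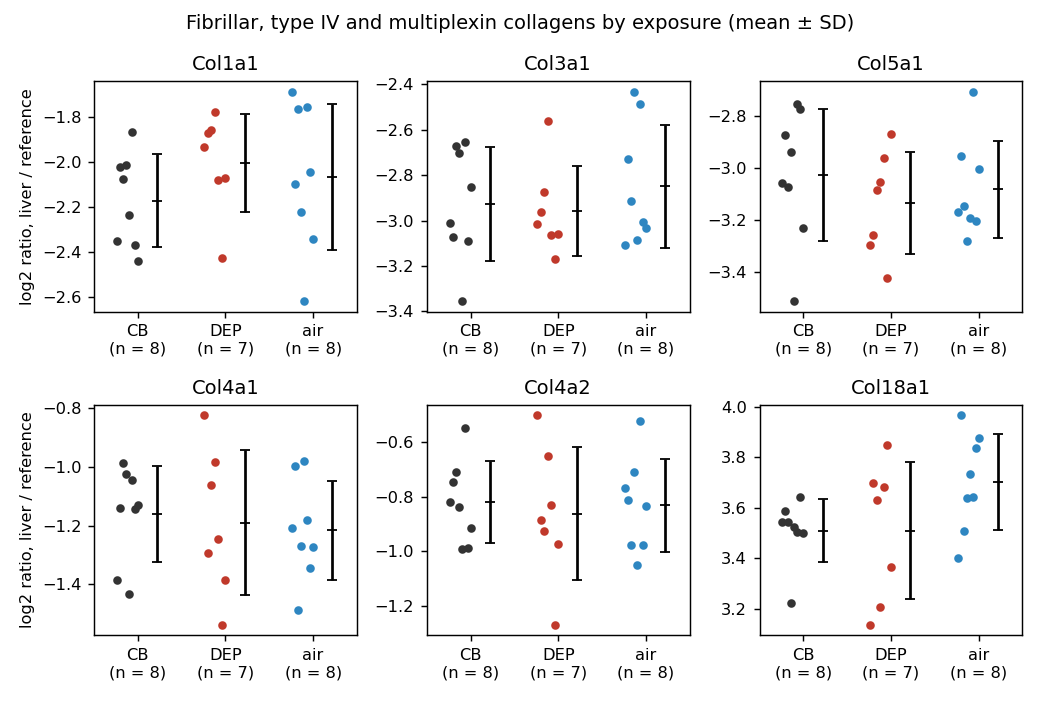
Log2 ratio of liver to reference (y axis, a separate scale per panel) of Col1a1, Col3a1, Col5a1, Col4a1, Col4a2 and Col18a1 in CB (8 mice), DEP (7) and air (8), with points for mice and bars for mean ± SD. The ranges of the 3 groups overlap in every panel, and the Col18a1 points are partly capped by saturation.

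The genes with an unadjusted p under 0.05 were mostly at the edge of detection. Col6a6 (NM_172927), a chain of type VI, had −0.59, 0.04 and 0.42 in CB mice, −0.05, 0.24 and 0.56 in DEP mice and 0.07, 0.37 and 0.69 in air mice. Its Cy5 spot was absent on 7 of 8 CB, 5 of 7 DEP and 2 of 8 air arrays, with median Cy5 signals of 183, 219 and 216 in that order. The lowest Cy5 signal called present on an array was itself 197 to 301.5 in the CB group, 187 to 283.5 in the DEP group and 154.5 to 231.5 in the air group. The part of this limit in the result was not tested. Col6a6 had a log2 fold change over air of −0.37 in CB mice (SE 0.12, limma adjusted p = 0.689) and −0.11 in DEP mice (SE 0.12, adjusted p = 0.997). For Col6a6, CB and DEP mice of the second round gave −0.46 and 0.12, and those of the last round −0.08 and −0.32.

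Col9a1 (NM_007740) had −0.36, 0.03 and 0.51 in CB mice, −0.13, 0.06 and 0.26 in DEP mice and −0.39, −0.15 and 0.08 in air mice. Its Cy5 spot was absent on every array, so these ratios compare signals within the range of the negative control and no fold is given. The fitted log2 difference was 0.23 for CB (limma adjusted p = 0.838) and 0.23 for DEP (adjusted p = 0.997). For Col9a1, CB and DEP mice of the second round gave 0.12 and 0.24, and those of the last round 0.41 and 0.14. Col12a1 (NM_007730), a fibre-associated collagen, had −0.11, 0.14 and 0.58 in CB mice, −0.32, −0.13 and 0.41 in DEP mice and −0.29, −0.09 and 0.20 in air mice. It was present on 1 CB array and on no DEP or air array, and its fitted log2 difference was 0.24 after CB (limma adjusted p = 0.838) and 0.11 after DEP. For Col12a1, CB and DEP mice of the second round gave 0.35 and 0.14, and those of the last round 0.11 and 0.33. Col9a3 was present on 0 of 8 CB arrays and on 4 of 8 air arrays. Its Cy5 signal put air at least 1.29-fold above CB, but this rested on air mouse 53, with a Cy5 signal of 3992 beside a Cy3 signal of 3202, and no bound remained without that mouse. The log2 fold change of the Col9a3 ratio after CB was −0.04 (limma adjusted p = 0.977).

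Col6a2 (NM_146007), a partner of Col6a1 in type VI, had the smallest p between CB and DEP and was singled out after its values were seen. It had −1.83, −0.80 and 1.61 in CB mice, −2.70, −1.66 and −0.12 in DEP mice and −1.56, −0.92 and −0.60 in air mice. CB mouse 48 was far above all other mice, with a Cy5 signal of 15635, and all air mice lay within the range of the CB mice. The log2 fold change of CB over DEP was 1.03 (standard error 0.38, 95% interval 0.25 to 1.81, limma adjusted p = 1.00). Within the second round it was 1.13 and within the last round 0.92, but each value rests on few mice. The second round held CB mouse 48 and only 2 DEP mice, and the last round only 1 CB mouse. In 1 of those 2 DEP mice, mouse 56, the spot was absent, with a Cy5 signal of 173 and a Cy3 signal of 439.5. Against air the log2 fold change of Col6a2 was 0.42 after CB and −0.61 after DEP. For Col6a1 the 95% interval of CB over DEP was −0.28 to 0.28.

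Between mice the detected collagens varied about as much as other detected features. The median SD over the 23 mice was 0.25 for 30 collagens, against 0.24 for 13669 features, and the 90th percentile was 0.55 against 0.44. It was 0.24 for fibrillar and 0.18 for type IV genes. The largest SDs were those of Col2a1 and Col6a2 at 0.88 and Col14a1 at 0.71, followed by Col9a2 at 0.53, Col4a4 at 0.52 and Col8a1 at 0.51. The 95% intervals of the 30 detected collagens against air reached from 0.583-fold to 2.26-fold after CB and from 0.383-fold to 1.91-fold after DEP, and the ends after DEP belonged to Col6a2 (lower) and Col4a4 (upper).

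Chains that join in 1 molecule were followed across the 23 mice in 6 pairs, chosen after some of these correlations had been seen. All p-values are from permutation tests (100000 permutations, two-sided), adjusted over the 6 pairs. The adjustment does not cover the choice of pairs. Col5a1 and Col5a2 had a Pearson r of 0.70 (p = 0.00023, adjusted p = 0.00138 by permutation) and a Spearman rho of 0.70 (p = 0.00031, adjusted p = 0.00186 by permutation). Without the 2 mice farthest from the median of Col5a1 r was 0.67. It was 0.54 in the 12 mice of the second round, 0.86 in the 7 mice of the last and 0.71 within the exposure groups, and 0.76 for the Cy5 signal alone. The 2 genes lie on different chromosomes, 2 for Col5a1 and 1 for Col5a2. The Cy5 spot of Col5a2 was absent on 8 of the 23 arrays, with a median signal of 252. The part of such dim spots in the correlation was not tested.

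Col4a1 and Col4a2, the head-to-head pair, had an r of 0.59 (p = 0.00327, adjusted p = 0.00981 by permutation) and a rho of 0.50 (p = 0.0166, adjusted p = 0.0332 by permutation). Without the 2 mice farthest from the median r was 0.36. In mice of the second round it was −0.11, in those of the last 0.95, and on Cy5 signals without the reference −0.07, so the relation rests on a few mice and did not hold within the second round. Col1a1 and Col1a2 had an r of 0.50 (p = 0.0161, adjusted p = 0.0323 by permutation) and a rho of 0.59 (p = 0.00392, adjusted p = 0.0118 by permutation). Without the 2 farthest mice r was 0.60, and it was 0.31 within the second round, 0.85 within the last and 0.10 for the Cy5 signal alone. The other pairs had an r of 0.26 (Col4a3 and Col4a4), −0.10 (Col4a5 and Col4a6) and −0.15 (Col6a1 and Col6a2), with adjusted p of 0.234, 0.656 and 0.587 by permutation. Ratios of 1 array share its hybridization and its normalization, and the part of these in the correlations was not tested.

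**Figure D4:**
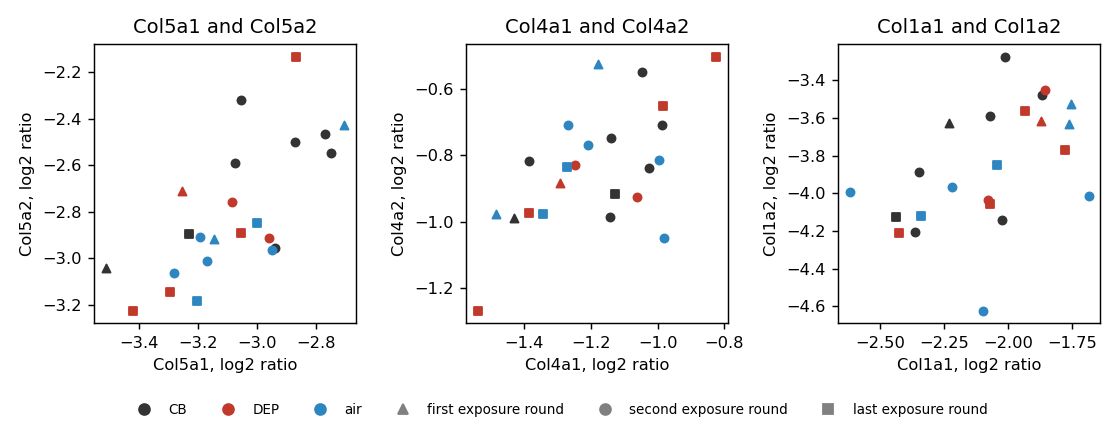
Log2 ratio of liver to reference of one chain (x axis) and its partner (y axis) in the 23 mice, coloured by group (CB black, DEP red, air blue) with the shape giving the exposure round. Col5a1 and Col5a2 rise together across mice (r = 0.70), while in the middle panel DEP mice 835434 and 51 form the ends of the cloud of Col4a1 and Col4a2.

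The genes around collagen were taken from 7 lists with 86 measured genes, and limma called 0 of them after CB and 0 after DEP. At an unadjusted p under 0.05 there were 6 after CB, where the background was 5.94% of all features, and 3 after DEP, where it was 4.82%, and these counts are near the background. All values named here failed the adjusted test of limma, and the genes were picked by the smallest p against air within each list. Of the genes that fold and hydroxylate collagen chains, 11 of 13 were detected, 6 had a positive and 7 a negative log2 fold change after CB, and 4 and 9 after DEP. Serpinh1, the collagen chaperone HSP47, lay at −3.99 against the reference and had a log2 fold change of −0.11 after CB and −0.24 after DEP. Crtap, a part of the prolyl 3-hydroxylase complex, had 0.18 and −0.05. Fkbp14, whose spot was absent on most arrays, had 0.16 and 0.13.

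Of the genes that trim and cross-link collagen, 5 of 11 were detected. Lox, lysyl oxidase, which oxidises lysines so that fibres can be cross-linked, had log2 ratios of −3.76 ± 0.36 in CB mice, −3.28 ± 0.92 in DEP mice and −4.17 ± 0.45 in air mice (SD). Its log2 fold change was 0.41 in CB mice (SE 0.28, limma adjusted p = 0.888) and 0.89 in DEP mice (SE 0.29, adjusted p = 0.997). The spread among DEP mice was the widest of the groups, and its spot was absent on 2 air arrays. Tll1, present on 1 array, had 0.30 after CB, and Pcolce, which helps to cleave procollagen, had −0.18 after CB and −0.08 after DEP. Of the genes that break collagen down or inhibit this, 9 of 14 were detected and 9 were positive and 5 negative after either particle. Mmp3, a matrix metalloproteinase, had a log2 fold change of 0.40 after CB and 0.13 after DEP, and Mmp12 and Ctsk were present on 4 and 3 arrays.

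Of the collagen receptors 6 of 9 were detected, with 4 positive and 5 negative values after CB and 1 and 8 after DEP. Itga11, an integrin subunit of fibroblasts that binds fibrillar collagen, had a log2 fold change of −0.25 after DEP (SE 0.09, limma adjusted p = 0.997) and −0.09 after CB. Ddr2, a receptor kinase for fibrillar collagen, had 0.17 after CB and 0.07 after DEP. Of the other basement membrane genes 12 of 14 were detected, with 7 positive and 7 negative after CB and 4 and 10 after DEP. The laminin chain gene Lamb1 had 0.35 after CB and 0.09 after DEP. Of the other fibrous matrix genes 8 of 10 were detected, with 9 positive and 1 negative after CB and 4 and 6 after DEP, and fibronectin, Fn1, had 0.18 and 0.23.

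In the TGF-beta axis, the main signal known to raise collagen genes, 14 of 15 genes were detected, with 10 positive and 5 negative after CB and 6 and 9 after DEP. Tgfb1 itself had log2 ratios of −0.58 ± 0.22 in CB mice, −0.83 ± 0.11 in DEP mice and −0.81 ± 0.12 in air mice (SD). Its log2 fold change was 0.23 after CB (SE 0.09, limma adjusted p = 0.816) and −0.01 after DEP. Ltbp4, which holds latent TGF-beta in the matrix, had 0.18 after CB (limma adjusted p = 0.838) and 0.03 after DEP. The study's own test, unlike limma here, listed Ltbp4 as significantly raised after CB, though not after DEP. The study also held it possible that most genes of its list were false positives. Tgfbr3, a co-receptor, had −0.19 after either particle. For CB the medians of the 7 lists lay between −0.04 and 0.05, and for DEP between −0.09 and 0.03, where all features had 0.00.

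The tissue was checked against markers of its cells, given as the range over mice of the mean log2 ratio of a list. All 8 measured hepatocyte markers were detected, at 3.87 to 4.82 in CB mice, 4.18 to 4.71 in DEP mice and 4.44 to 4.84 in air mice. Of these, 6 had a negative log2 fold change after CB and 7 after DEP, with medians of −0.19 and −0.25, and 6 of the 8 were capped by saturation on some arrays: Alb, Apoa2 and Fabp1 on all 23, Apoa1 on 20, and Tat and Cps1 on 8 each. Apoa2 had a log2 fold change of −0.53 after CB (limma adjusted p = 0.621) and −0.48 after DEP (adjusted p = 0.997), and Alb one of −0.37 and −0.67 (adjusted p = 0.861 and 0.997). Since the Cy5 signal of Alb, Apoa2 and Fabp1 was at the cap on all 23 arrays, their values cannot report a change in liver RNA. The counts and medians of the hepatocyte markers include these capped genes. Of 12 stellate cell and fibroblast markers 9 were detected, and Des, Gfap and Dpt were absent on most arrays. Their mean ran from −1.08 to −0.75 in CB mice, from −0.99 to −0.74 in DEP mice and from −1.12 to −0.79 in air mice. Their part in the collagen values was not tested. Of the endothelial markers 8 of 9 were detected, and of the mesothelial markers 4 of 5. All 7 macrophage, 5 bile duct and 7 pancreatic markers were detected, and 2 of 4 fat markers. Per array, Cy5 signals had medians of 241 to 477 among CB mice, 272 to 421.5 among DEP mice and 241 to 473 among air mice, and no pair of arrays held the same values.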

How the data were processed

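Liver RNA of 23 mice was measured on 2-colour arrays, and the labels count each mouse as a separate sample. The deposited files hold the intensity values of both dyes as the authors quantified them from the scans, with a flag per spot for signals within the range of the negative control probe. The files also hold log2 ratios that the authors had normalized by lowess in R 2.4.1, and these were used only as an alternative. The labels name TRIzol and RNeasy for extraction, and the study's methods name another kit.

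The intensities were loess-normalized within each array over the 18688 features with a listed gene, and the 3887 features without one were left out. limma 3.58.1 in R 4.3.3 fitted all 3 groups in 1 model, with adjustment by Benjamini-Hochberg over all 18688 features and a threshold of 0.05. The feature with the highest mean log2 signal stood for a gene. The procedure was tested on simulated data. The members, gene lists and tests were chosen with earlier results of these data known. Collagen genes named with full values were fixed by name or had an unadjusted p under 0.05. From each of the 7 lists around collagen, up to 3 genes with the smallest p against air in these data were named. Alternatives covered normalization, background, signal filters, exposure round, day and array set as blocks, and leaving out each mouse.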

Additional observations from a re-analysis of the deposited data

Results flagged for a closer look

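In 18 of 120 combinations of a collagen gene and a group, 1 mouse stood far from the others of its group (Dixon's criterion). The nominal level of the criterion is about 6 of 120. The share flagged over all features is not given here, so the count is not read as a trait of collagens. Flagged genes include Col4a3, Col4a6, Col17a1 and Col26a1, which were absent on most arrays. Air mice 443 and 54 had 3 each, the most of any mouse. In air mouse 443, Col5a2 at −2.43 and Col8a1 at −1.26 were the highest values of the group, and Col11a1 at −0.24 was the lowest. Among the basement membrane genes, Col4a3 was 2.11 in CB mouse 835052, Col4a4 was 1.34 in DEP mouse 835435 and Col4a6 was 0.62 in air mouse 54. Col17a1, a transmembrane collagen of epithelia that was absent on most arrays, was 1.53 in CB mouse 446 and 0.71 in DEP mouse 835434, where its Cy5 signal was 7127 and its Cy3 signal 3308. Col9a2 was 0.18 in air mouse 50, with a Cy5 signal of 255. Col18a1 was 3.22 in CB mouse 59, where its Cy5 signal was saturated, and Col20a1 was −2.33 in the same mouse. High values were also those of Col6a4 at 0.57 in CB mouse 48 and Col7a1 at −1.04 in CB mouse 835436. Low values were those of Col16a1 at −3.29 in CB mouse 445, Col11a2 at −0.51 in DEP mouse 835434, Col25a1 at −0.13 in DEP mouse 55, and Col11a2 at −0.35 and Col26a1 at −0.38 in air mouse 54.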

How the results depend on the processing

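No collagen gene was called under any alternative, and with each mouse left out in turn the counts ran from 0 to 0. Median centring moved the median log2 fold change of all collagens to −0.0782 for CB over air and −0.0744 for CB over DEP, and that of type IV genes to −0.0786, −0.0786 and, for the pooled particle mice, −0.0470. It also moved the type IV ratio to the reference to −1.02. It shifted the median of all features by −0.11 for CB over air, −0.04 for DEP over air and −0.07 for CB over DEP. Cy5 signals alone put the type IV median of CB over air at −0.0919. Directions of single genes, none of them called, turned as follows. Median centring gave CB values of −0.10 (Col1a2), −0.16 (Col4a1), −0.20 (Col4a2) and −0.26 (Col6a1), and DEP values of −0.0736 (Col1a1), −0.0696 (Col4a1) and −0.11 (Col6a1). Cy5 alone gave CB values of 0.33 (Col3a1), −0.0912 (Col4a1), −0.0925 (Col4a2), −0.0221 (Col5a2) and 0.0447 (Col18a1), DEP values of −0.0848 (Col1a1), 0.30 (Col3a1) and −0.0557 (Col5a2), and 0.00228 for Col18a1 in the pooled particle mice. The deposited ratios gave −0.0238 for Col4a1 after DEP, and −0.00976 and −0.0212 for Col6a1 after CB and DEP. Col4a2 after CB was −0.0160 with normexp and −0.0304 with the array set as a block. The second round alone gave 0.0404 (Col1a1, CB), −0.00829 (Col4a1, CB), −0.0410 (Col4a1, DEP) and 0.12 (Col6a6, DEP), and the last round alone −0.14 (Col1a2, CB), 0.17 and 0.0683 (Col3a1, CB and DEP), −0.00933 and 0.0570 (Col4a2, CB and DEP). With 1 mouse left out, CB values ran from −0.0260 to 0.0565 for Col4a2 and −0.0221 to 0.12 for Col6a1, and DEP values from −0.0153 to 0.13 for Col1a1, −0.0350 to 0.0841 for Col4a1, −0.0902 to 0.0375 for Col4a2, −0.0247 to 0.16 for Col5a2, −0.00843 to 0.12 for Col6a1 and −0.0535 to 0.12 for Col15a1. The cause was not tested. No paired analysis was possible because the groups share no mouse numbers. Dim or saturated spots limit Col5a2, Col15a1, Col18a1 and Col1a2, whose CB and DEP values were 0.0608 and 0.11 without the arrays saturated in Cy3, an alternative chosen after seeing the data. The bound of Col9a3 was 1.26-fold to 1.43-fold with any air mouse but 53 left out.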
